A study of Mus musculus with 12 samples.

Results

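Ovaries of 12-month-old mice cultured with a ginseng saponin fraction were set against ovaries of 6-month-old mice cultured without it, to describe which functions of the treated older ovary stood apart from the younger untreated ovary and which lay close to it. The comparison used 6 of the 12 arrays of the series, chosen by their labelled age and treatment, namely the 3 arrays of 12-month-old KRGSF-treated ovaries and the 3 arrays of 6-month-old untreated ovaries. KRGSF is the saponin fraction of Korean red ginseng, which the array labels write as RGE. All mice were C57BL/6 females, and all ovaries were kept in culture for 24 h in DMEM with serum and antibiotics, so that both groups are cultured tissue and neither is fresh ovary. The 12-month-old KRGSF-treated ovaries had 10 mg/mL KRGSF in the medium. The 6-month-old untreated ovaries had none, and the labels name DMSO as the alternative to the fraction. The other 6 arrays held untreated ovaries of 12 months and ovaries of 6 months with KRGSF. Because the treated and untreated ovaries of this comparison also differed by 6 months of age, age and KRGSF act together in every difference below. Nothing in the labels ties the 3 arrays of a group to separate animals, and the p-values measure only the spread between arrays.

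The mouse ovary holds oocytes in follicles of granulosa and theca cells, corpora lutea that make progesterone after ovulation, and a stroma with vessels and immune cells. Part of its antioxidant defence is set by NRF2 (gene Nfe2l2), a transcription factor that the adaptor KEAP1 marks for destruction by the proteasome. When electrophiles or oxidants modify KEAP1, NRF2 escapes, enters the nucleus and binds antioxidant response elements beside genes for glutathione synthesis, the thioredoxin system, heme breakdown and the supply of NADPH. The corpus luteum makes progesterone from cholesterol, and ends its life by switching on the enzyme that inactivates progesterone.

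Of 58 gene groups, the NRF2 targets had the highest median difference from the 6-month-old untreated ovaries, so the promoters of 4 of them are shown. These 4 genes were measured higher in the treated ovaries and carry the core of the antioxidant response element, TGACNNNGC, wholly before the start site. Each line gives the 250 bases before the RefSeq start site on the gene's own strand (GRCm38.p6), with the element in capitals, read on either strand.
Gsta3: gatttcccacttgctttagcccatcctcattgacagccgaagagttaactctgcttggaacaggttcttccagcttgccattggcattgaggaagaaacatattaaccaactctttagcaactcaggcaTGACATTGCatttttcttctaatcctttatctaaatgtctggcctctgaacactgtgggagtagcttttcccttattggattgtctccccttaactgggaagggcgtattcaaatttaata
Gclm: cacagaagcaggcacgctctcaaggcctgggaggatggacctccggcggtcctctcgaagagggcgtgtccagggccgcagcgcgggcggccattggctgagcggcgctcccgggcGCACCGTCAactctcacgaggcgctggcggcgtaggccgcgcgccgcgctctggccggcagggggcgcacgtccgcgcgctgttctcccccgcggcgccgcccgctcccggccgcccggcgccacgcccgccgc
Txnrd1: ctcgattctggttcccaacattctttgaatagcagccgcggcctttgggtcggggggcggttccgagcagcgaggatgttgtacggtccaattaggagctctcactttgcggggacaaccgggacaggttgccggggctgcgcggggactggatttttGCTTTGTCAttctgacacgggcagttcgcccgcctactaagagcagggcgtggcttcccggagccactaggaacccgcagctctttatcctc
Ugdh: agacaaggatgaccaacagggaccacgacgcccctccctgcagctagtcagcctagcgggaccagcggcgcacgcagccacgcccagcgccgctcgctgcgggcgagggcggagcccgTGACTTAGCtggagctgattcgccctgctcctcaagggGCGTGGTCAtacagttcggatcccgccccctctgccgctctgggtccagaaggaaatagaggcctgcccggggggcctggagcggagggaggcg
The Gsta3 stretch lies at chr1:21240335-21240584 on the plus strand, the Gclm stretch at chr3:122245307-122245556 on the plus strand, the Txnrd1 stretch at chr10:82858956-82859205 on the plus strand and the Ugdh stretch at chr5:65435843-65436092 on the minus strand. The element begins 121 bases before the start site in Gsta3, 134 in Gclm and 92 in Txnrd1, and Ugdh holds it at 132 and at 94 bases. Of the 29 NRF2 targets measured, 24 had a promoter in the RefSeq table, and 8 of these 24 (33.3%) held the element somewhere from 250 bases before to 50 bases after a start site. Of all genes in that table, 3781 of 27025 (14%) held it. A match describes the letters only. Binding of NRF2 was not measured.

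A few facts on the arrays bear on every value. The levels are log2 values, so that a difference of 1 is 2-fold. Differences are given as 12-month-old KRGSF-treated minus 6-month-old untreated, with the 95% confidence interval (CI) from limma fitted on all 12 arrays. A gene was counted as called, and is said below to have risen or fallen, when its level differed over 1.5-fold with an unadjusted p under 0.05. It was counted as close when the whole CI lay inside 1.5-fold either way, and as undecided otherwise. Of 22180 genes, 1259 were called higher (5.68%), 810 were called lower (3.65%) and 7941 were close (35.8%). No probe set passed a Benjamini-Hochberg adjusted p of 0.05 in limma, where the lowest adjusted p was 0.0565 and 9354 of 33793 probe sets had an unadjusted p under 0.05. That count of 0 was not kept by every alternative. With 1 probe set per gene, 464 passed higher and 186 lower, and among the brighter probe sets alone 1982 passed higher and 778 lower. The other counts are given with the dependence on processing. The 3 treated and the 3 untreated arrays did not overlap for 34% of all genes. Replicate 2 of each group stood apart from the other arrays. The SD of all log2 values was 1.733 on the 12-month-old KRGSF-treated replicate 2 and 1.471 on the 6-month-old untreated replicate 2, while the other arrays lay between 1.536 and 1.639. With this went a dependence of the difference on brightness. Genes with a mean level under 4 had a median difference of -0.23, and those between 6 and 7 had 0.42 with 22.2% called higher. Leaving out both arrays took the median of the genes between 6 and 7 to 0.23, with 203 of all genes called higher (0.915%), 338 called lower (1.52%) and 7862 close (35.4%). After cyclic loess, a normalization that removes a trend with brightness, that median was 0.10, with 525 called higher (2.37%), 423 called lower (1.91%) and 12203 close (55%). For this reason the counts of a gene group are followed by those of genes of like brightness, taken as the span that holds the group's median level, and by the group's counts without both arrays and after cyclic loess, called the other settings below. The genes that the tissue should show were present. Star, the carrier of cholesterol into mitochondria, averaged 9.78 in 12-month-old KRGSF-treated and 9.48 in 6-month-old untreated ovaries, and Inha, the inhibin alpha subunit of granulosa cells, had 6.94, 7.79 and 6.68 in treated and 6.92, 6.47 and 7.04 in untreated 6-month-old ovaries. The zona pellucida genes Zp2 and Zp3, which only oocytes express, were dim, at 3.67 to 4.23 on treated and 3.85 to 4.32 on untreated arrays, below the 4.82 that 95% of olfactory receptor genes stayed under.

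**Figure D1:**
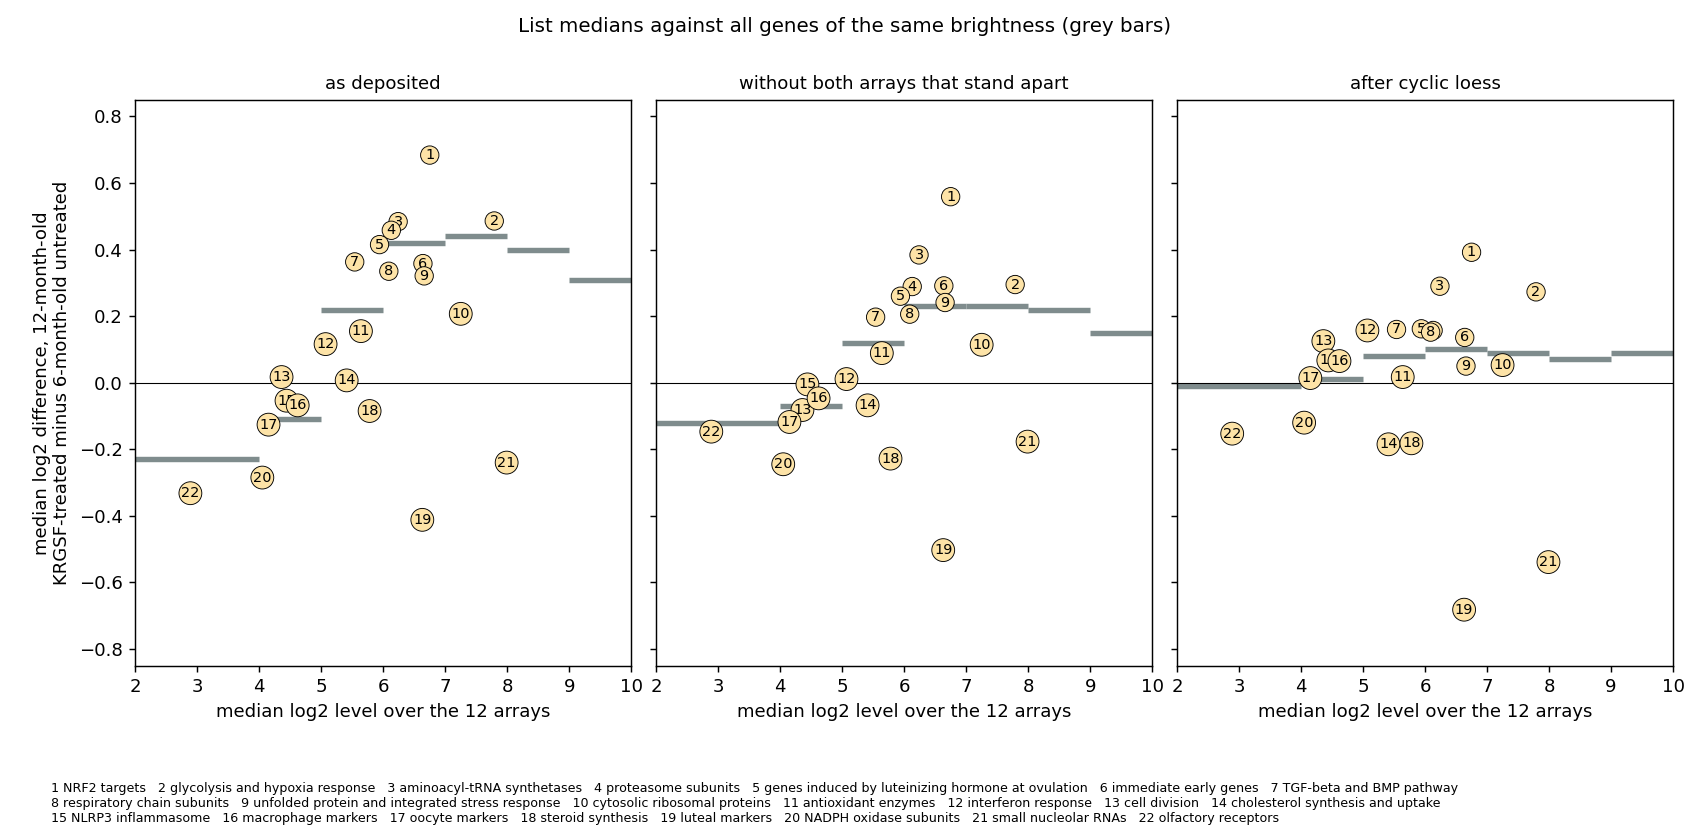
Median log2 difference (y axis, 12-month-old KRGSF-treated minus 6-month-old untreated) of 22 gene groups against the median log2 level of the group (x axis), as deposited, without both arrays that stand apart and after cyclic loess. Grey bars give the median of all genes in each span of brightness; the NRF2 targets lie above the bar in all 3 panels, at 0.68, 0.56 and 0.39, and the luteal markers below it, at -0.41, -0.50 and -0.68.

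Most NRF2 targets were higher in the treated older ovaries. Of 29 measured targets, 18 (62.1%) were called higher, 1 was called lower, 2 were close and 8 were undecided, and 28 had a positive difference. Their median level was 7.10, 7.20 and 7.05 on the treated arrays, against 6.82, 6.10 and 6.31 on the untreated 6-month-old arrays, and the median difference was 0.68. Genes of the same brightness, between 6 and 7, had a median of 0.42 and 22.2% called higher. Without both arrays that stand apart the median of the targets was 0.56 with 12 called higher and none lower, and after cyclic loess it was 0.39 with 9 called higher and 1 lower. Leaving out any 1 array kept the median between 0.57 and 0.81. For 20 of the 29 targets the arrays of the groups did not overlap. The same held for 3219 of the 6244 brightest genes, whose median level was 5.97, and for 7537 of all 22180 genes (34%).

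The largest differences of the group were those of a glutathione transferase, the cystine importer and a subunit of glutathione synthesis. Gsta3, a glutathione transferase, had levels of 5.49, 5.40 and 5.42 in treated ovaries, against 4.62, 3.71 and 4.06 in untreated 6-month-old ovaries. The untreated values lay below the dim level of 4.82 and the treated values above it. All 3 treated arrays lay above all 3 untreated ones, the difference was 1.30 (CI 0.88 to 1.73, limma adjusted p = 0.0565), and near-identical relatives of Gsta3 may share its probes. Slc7a11, the cystine importer that feeds glutathione synthesis, had 6.76, 6.62 and 7.19 in treated ovaries, against 5.99, 5.59 and 5.57 in untreated 6-month-old ovaries. Again no array overlapped, and the difference was 1.13 (CI 0.74 to 1.53). Gclm, the regulatory subunit of the enzyme that starts glutathione synthesis, had 7.42, 7.51 and 7.48 in treated ovaries, against 6.74, 6.01 and 6.31 in untreated 6-month-old ovaries. The treated arrays lay close together and above every untreated array, with a difference of 1.11 (CI 0.72 to 1.51). The catalytic subunit Gclc (0.80) and Gsr, which restores oxidised glutathione (0.66), rose as well, Gsr with less when both arrays that stand apart were left out (0.30). The calls of Gsta3, Slc7a11 and Gclm held under every alternative run, with differences of 1.09 to 1.55, 0.86 to 1.27 and 0.78 to 1.31.

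Heme breakdown and the thioredoxin system followed. Hmox1, heme oxygenase, had 9.58, 9.27 and 9.45 in treated ovaries, against 8.82, 8.07 and 8.44 in untreated 6-month-old ovaries. The groups did not overlap, and the difference of 0.99 (CI 0.61 to 1.36) stayed between 0.70 and 1.18 over the alternatives. Blvrb, a biliverdin reductase, rose by 0.64. Fth1, the heavy chain of the iron store ferritin, had 11.32, 11.33 and 11.42 in treated and 11.20, 10.63 and 10.57 in untreated 6-month-old ovaries and stayed undecided at 0.55. Txnrd1, thioredoxin reductase, had 8.97, 8.83 and 8.75 in treated ovaries, against 8.28, 8.03 and 7.71 in untreated 6-month-old ovaries. It rose by 0.85 (CI 0.48 to 1.22), with no array overlapping. Its substrate thioredoxin, Txn1, rose by 0.66 with overlapping arrays, and Srxn1, sulfiredoxin, was undecided at 0.35.

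The detoxifying reductases and the makers of NADPH moved less evenly. Nqo1, the quinone reductase often used as a readout of NRF2, had 6.40, 6.34 and 6.05 in treated ovaries, against 6.07, 4.87 and 5.32 in untreated 6-month-old ovaries. The highest untreated array lay above the lowest treated array, and the call at 0.84 (CI 0.25 to 1.44) was lost without the 6-month-old untreated replicate 2. The carbonyl reductases Cbr1 (0.89) and Cbr3 (0.85), the aldo-keto reductase Akr1b8 (0.77), aldehyde oxidase Aox1 (0.77), the epoxide hydrolase Ephx1 (0.71) and Ugdh, which makes the sugar donor of glucuronidation (0.68), all rose. Pgd, an NADPH-making enzyme of the pentose phosphate route, had 8.31, 7.94 and 8.32 in treated ovaries, against 7.67, 7.30 and 7.37 in untreated 6-month-old ovaries, and rose by 0.75. Me1, malic enzyme, which also makes NADPH, did not, with 8.17, 8.31 and 8.23 in treated and 8.53, 7.27 and 7.93 in untreated 6-month-old ovaries. Close to the younger ovary lay the transferase Gstm1 (0.05, CI -0.27 to 0.37) and Osgin1, an oxidative stress-induced growth inhibitor (0.08, CI -0.30 to 0.46). The 1 target called lower was Gpx2, a glutathione peroxidase, which was dim throughout, at 3.25, 2.12 and 2.90 in treated and 3.52, 4.49 and 3.74 in untreated 6-month-old ovaries. Gclc, Blvrb, Fth1, Txnrd1, Txn1, Srxn1, Cbr1, Cbr3, Aox1, Ephx1, Me1 and Gpx2 were named after their values had been seen.

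**Figure D2:**
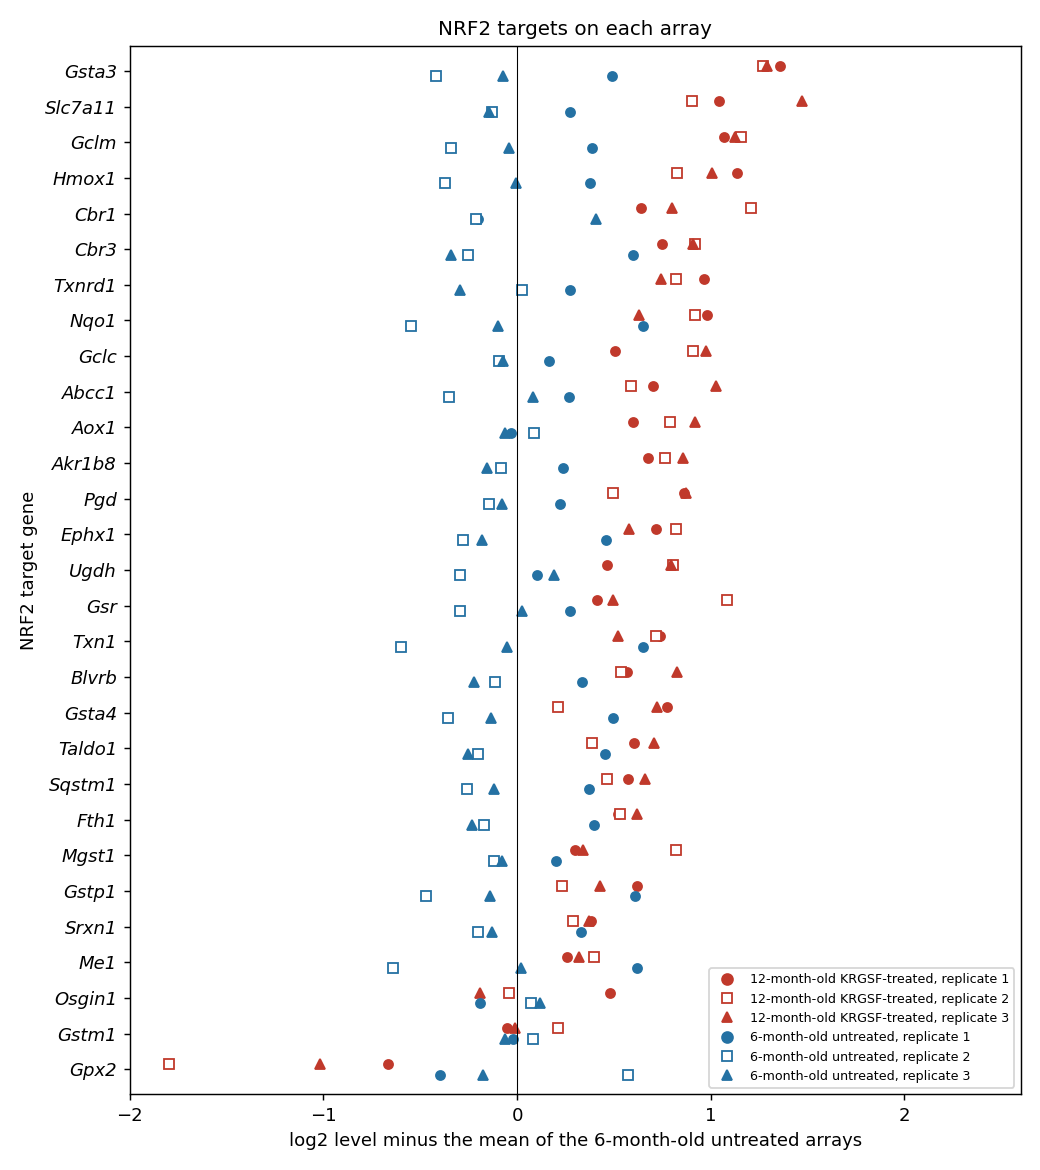
Level of each of the 29 NRF2 targets on the 3 arrays of 12-month-old KRGSF-treated ovaries (red) and the 3 arrays of 6-month-old untreated ovaries (blue), as log2 level minus the mean of the untreated 6-month-old arrays, with 1 symbol shape per replicate. Most red points lie right of the blue ones, Gsta3, Slc7a11 and Gclm by over 1, while Gstm1 and Osgin1 are mixed and Gpx2 lies to the left.

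The 12-month-old untreated ovaries share their age with the treated ovaries and their lack of KRGSF with the younger ones. They divide the comparison into a step with age and a step with KRGSF at 12 months, which share arrays with each other and with the comparison itself, so the values are only set side by side. The median of the NRF2 targets was 0.25 for 12-month-old untreated minus 6-month-old untreated and 0.44 for 12-month-old KRGSF-treated minus 12-month-old untreated. Slc7a11 differed by 0.20 with age and by 0.93 with KRGSF at 12 months, Gclm by 0.26 and 0.86, and Nqo1 by -0.29 and 1.13. Gsta3 differed by 0.69 with age and 0.61 with KRGSF, and Hmox1 by 0.48 and 0.51. Nfe2l2, the gene of NRF2 itself, was undecided, at 8.06, 8.35 and 8.14 in treated and 8.09, 7.44 and 7.60 in untreated 6-month-old ovaries.

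Other antioxidant enzymes, which are not counted among the NRF2 targets here, rose only in part. Of 24 measured, 4 (16.7%) were called higher, namely catalase Cat, the superoxide dismutases Sod1 and Sod2 and the mitochondrial peroxiredoxin Prdx3, and 9 were close. Their median was 0.16, against 0.22 with 9.63% called higher for all genes between 5 and 6. The count called higher was 1 without both arrays that stand apart and 0, with 1 called lower, after cyclic loess, with medians of 0.09 and 0.02. Cat, which breaks down hydrogen peroxide, had 8.87, 8.44 and 8.69 in treated ovaries, against 8.40, 7.74 and 7.89 in untreated 6-month-old ovaries. Every treated array lay above every untreated one, and the difference was 0.65 (CI 0.26 to 1.05). It was 0.63 without both arrays that stand apart, but 0.32 and no longer called after cyclic loess, and the call was also lost without the 6-month-old untreated replicate 2. Sod2, the mitochondrial superoxide dismutase, had 7.31, 8.13 and 7.40 in treated and 7.55, 6.42 and 6.52 in untreated 6-month-old ovaries. The highest untreated array lay above 2 of the treated ones, and the difference of 0.78 was 0.32 without both arrays that stand apart. Gpx1, a glutathione peroxidase, was close, at 0.17 (CI -0.23 to 0.58).

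The NADPH oxidases, which make superoxide, were lower or did not pass the test. Of 11 subunits measured, all had a negative difference, 3 were called lower and 4 were close, with a median of -0.29. Only 1 subunit exceeded the dim level of 4.82. Nox1 had 3.42, 3.13 and 3.38 in treated ovaries, against 3.74, 4.20 and 3.79 in untreated 6-month-old ovaries, and fell by 0.60. Nox3 fell by 0.62 and Duox2 by 0.73. All genes between 4 and 5 had a median of -0.11, and 3.23% of them were called lower. The group's median level, 4.05, lay at the lower edge of that span. Genes under 4 had a median of -0.23, and 5.99% of them were called lower. The olfactory receptor genes that set the dim level, at a median level of 2.89, had a median of -0.33 with 16.3% called lower. The fall of the subunits was thus no larger than that of these dim genes. Leaving out both arrays that stand apart kept 1 subunit called lower, at a median of -0.25, and after cyclic loess 0 were called, 2 had a positive difference and the median was -0.12. Cybb, the catalytic subunit of phagocytes, was close at -0.06 (CI -0.42 to 0.30).

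Genes of sugar use, tRNA charging and protein breakdown were higher in the treated older ovaries, with medians near those of genes of like brightness as deposited. Of 21 genes of glycolysis and the hypoxia response, all had a positive difference, 8 (38.1%) were called higher and 3 were close. Their median was 0.49, against 0.44 and 21.1% called higher for all genes between 7 and 8. Hk2, the hexokinase that insulin and hypoxia induce, had 6.64, 6.83 and 6.94 in treated ovaries, against 6.32, 5.78 and 6.23 in untreated 6-month-old ovaries. Its arrays did not overlap, and it rose by 0.69 (CI 0.32 to 1.06). Slc2a1, the basal glucose transporter, had 10.20, 10.57 and 10.25 in treated ovaries, against 9.80, 9.45 and 9.97 in untreated 6-month-old ovaries, and rose by 0.61. The phosphofructokinase Pfkp (0.71) and the mitophagy receptor Bnip3 (0.71) rose too. The isoenzymes Pfkl (0.25, CI -0.07 to 0.57) and Hk1 (0.28, CI -0.03 to 0.58) and the pyruvate dehydrogenase kinase Pdk1 (0.27, CI -0.05 to 0.58) were close. Without both arrays that stand apart the median was 0.29 with 0 called, and after cyclic loess it was 0.27 with 1 called. Genes between 7 and 8 had medians of 0.23 and 0.09 at these settings.

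The aminoacyl-tRNA synthetases, which charge tRNAs with amino acids, all had a positive difference, 17 of 17. Of these, 6 were called higher (35.3%) and 1 was close (5.88%), with a median of 0.48. All genes between 6 and 7 had a median of 0.42, with 22.2% called higher and 19.2% close. Iars, for isoleucine, had 7.31, 7.30 and 7.50 in treated ovaries, against 7.03, 6.44 and 6.57 in untreated 6-month-old ovaries. The groups did not overlap and the difference was 0.69 (CI 0.34 to 1.05). Rars (0.66), Tars (0.66), Eprs (0.66), Sars (0.65) and Kars (0.60) rose, and Farsa was close at 0.05 (CI -0.25 to 0.36). The median was 0.38 with 1 called without both arrays that stand apart, and 0.29 with 0 called after cyclic loess. At these settings genes between 6 and 7 had medians of 0.23 and 0.10.

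Of 38 proteasome subunits, 10 (26.3%) were called higher, 7 were close and 33 had a positive difference, with a median of 0.46. Both values were near the 22.2% and 0.42 of all genes between 6 and 7. Psma1, a subunit of the outer ring of the core, had 5.54, 6.37 and 5.89 in treated ovaries, against 5.37, 4.34 and 4.80 in untreated 6-month-old ovaries. It rose by 1.09 and held its call under every alternative, between 0.63 and 1.36. Psmd1, a scaffold of the regulatory particle, rose by 0.88 and Psmd12 by 0.75. The immunoproteasome subunits Psmb8 (0.01), Psmb9 (0.16) and Psmb10 (0.05) were close. Without both arrays that stand apart 1 subunit was called and the median was 0.29, and after cyclic loess 1 was called higher and 1 lower and the median was 0.16.

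Energy metabolism in mitochondria was no higher than genes of like brightness as deposited. Of 45 respiratory chain subunits, 44 had a positive difference, 4 (8.89%) were called higher and 8 were close, with a median of 0.33. Ndufa4 had 8.20, 8.51 and 8.24 in treated ovaries, against 8.14, 7.13 and 7.68 in untreated 6-month-old ovaries, and rose by 0.66. The others called were Ndufb9 (0.84), Cox7b (0.66) and Cox6a1 (0.62). Genes between 6 and 7 had a median of 0.42 and 22.2% called higher. At both of the other settings 1 subunit was called, with medians of 0.21 and 0.15. Genes between 6 and 7 had medians of 0.23 and 0.10 at these settings, so the subunits lay slightly above them after cyclic loess. Of 23 genes of the tricarboxylic acid cycle and its entry, 5 were called higher, citrate synthase Cs (0.60), the pyruvate dehydrogenase subunits Pdha1 (0.78) and Pdhb (0.67), the isocitrate dehydrogenase subunit Idh3b (0.59) and the malate dehydrogenase Mdh1 (0.60). These 21.7% were near the 22.2% of all genes between 6 and 7, and 0 were called at either of the other settings. The median of the cycle genes was 0.35 as deposited, 0.185 without both arrays that stand apart and 0.15 after cyclic loess. Genes between 6 and 7 had 0.42, 0.23 and 0.10. Of 21 genes of fatty acid oxidation 1 was called higher (4.76%) and 10 were close (47.6%), with a median of 0.15, against 9.63%, 39.4% and 0.22 for all genes between 5 and 6. No gene of that list was called at the other settings.

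Idh1, the cytosolic isocitrate dehydrogenase that makes NADPH, was examined closely by the study. It had 8.47, 8.03 and 8.58 in 12-month-old KRGSF-treated ovaries, against 8.62, 7.59 and 8.64 in 6-month-old untreated ovaries. The treated values lay within the wider range of the untreated ones, with replicate 2 the lowest in each group, and the difference was 0.08 (CI -0.48 to 0.64), too wide on the upper side to count as close. The 12-month-old untreated ovaries had 7.91, 7.49 and 7.61, so Idh1 differed by -0.61 with age and by 0.69 with KRGSF at 12 months.

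Secretory stress genes were called higher less often than genes of like brightness as deposited. Of 24 genes of the unfolded protein and integrated stress responses, 3 were called higher and 8 were close, with a median of 0.32. Their 12.5% called lay below the 22.2% of all genes between 6 and 7, and 0 were called without both arrays that stand apart or after cyclic loess. Those called as deposited were endoplasmic reticulum chaperones and folding enzymes. Hsp90b1 had 10.08, 10.58 and 10.25 in treated ovaries, against 9.81, 9.45 and 9.67 in untreated 6-month-old ovaries, and rose by 0.66. The cochaperone Dnajb9 rose by 0.75 and the disulfide isomerase Pdia3 by 0.59. The stress transcription factors Ddit3 (-0.01, CI -0.36 to 0.34), Atf3 (0.06) and Atf4 (0.15) were close.

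Among hormone and growth factor pathways, 3 of 15 genes that luteinizing hormone induces at ovulation were called higher (20%), against 9.63% of all genes between 5 and 6. The group's median level, 5.94, lay at the upper edge of that span, and 22.2% of all genes between 6 and 7 were called higher. The group's count was 1 without both arrays that stand apart and 0 after cyclic loess. The 3 genes were the coregulator Nrip1 (0.77), the transcription factor Cebpb (0.69) and the matrix protease Adamts1 (0.65). Cebpb had 6.79, 7.15 and 6.88 in treated ovaries, against 6.59, 5.95 and 6.23 in untreated 6-month-old ovaries. The progesterone receptor Pgr (0.08, CI -0.40 to 0.56), the cumulus matrix gene Ptx3 (-0.003, CI -0.51 to 0.50) and the hyaluronan synthase Has2 (-0.13, CI -0.57 to 0.31) were close, and Pgr and Ptx3 were dim. Of 26 genes of the TGF-beta and BMP pathway, 4 (15.4%) were called higher and 8 were close, with a median of 0.36, against 9.63% called higher and a median of 0.22 for all genes between 5 and 6. At each of the other settings 1 was called, with medians of 0.20 and 0.16. Smad3, which carries the signal of activin and TGF-beta to the nucleus, had 6.97, 7.09 and 7.01 in treated ovaries, against 6.21, 6.21 and 6.64 in untreated 6-month-old ovaries. Its arrays did not overlap and it rose by 0.67 (CI 0.32 to 1.02), a call lost at both of the other settings. The ligands Bmp2 (0.71) and Bmp6 (0.66) and the corepressor Skil (0.61) rose too. For Smad3 the difference was 0.55 with age and 0.12 with KRGSF at 12 months, and for Bmp2 it was 0.62 and 0.09.

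The luteal markers had a median below that of genes of like brightness, though only 1 of them was called. Of 9 measured, 1 was called lower, 1 was close and 7 were undecided, with a median of -0.41, while all genes between 6 and 7 had a median of 0.42. The median level of the markers was 6.47, 6.01 and 6.71 in 12-month-old KRGSF-treated ovaries, against 7.03, 6.49 and 7.51 in 6-month-old untreated ovaries. The arrays of both groups overlapped. The median was -0.50 with 2 called lower without both arrays that stand apart, and -0.68 with 6 called lower after cyclic loess. Fewer luteal cells and less RNA of these genes per cell cannot be told apart in whole ovaries.

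Akr1c18, which inactivates progesterone in the regressing corpus luteum, had the largest fall of any named gene. Its level was 7.38, 3.69 and 6.71 in treated ovaries, against 8.21, 8.71 and 8.85 in untreated 6-month-old ovaries. Every treated array lay below every untreated one, with the treated replicate 2 far below the other two. The difference was -2.67 (CI -4.37 to -0.96), and -1.49 and no longer called without both arrays that stand apart. In 12-month-old untreated ovaries it was 6.22, 7.83 and 4.78, which also spread widely, so that Akr1c18 differed by -2.31 with age and by -0.35 with KRGSF at 12 months.

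The genes of progesterone synthesis were mixed, and none was called. Cyp11a1, which turns cholesterol into pregnenolone, had 8.53, 7.12 and 8.71 in treated ovaries, against 9.21, 7.94 and 9.03 in untreated 6-month-old ovaries, a difference of -0.61 (CI -1.40 to 0.18). Hsd3b1, which turns pregnenolone into progesterone, had 6.58, 6.01 and 6.61 in treated ovaries, against 7.24, 6.49 and 7.19 in untreated 6-month-old ovaries, a difference of -0.57 (CI -1.12 to -0.03). In both, replicate 2 of each group was the lowest and the ranges overlapped. Sfrp4, a Wnt antagonist of the corpus luteum, was at -0.94 (CI -2.06 to 0.19). Fdx1, which passes electrons to Cyp11a1, was on the positive side, with 7.22, 6.99 and 7.32 in treated and 7.0, 6.34 and 7.04 in untreated 6-month-old ovaries and a difference of 0.38 (CI -0.04 to 0.81). Star was on that side too, with 9.62, 10.00 and 9.73 in treated and 9.48, 9.42 and 9.53 in untreated 6-month-old ovaries and a difference of 0.31 (CI -0.08 to 0.69). Side by side, Cyp11a1 differed by -0.84 with age and 0.23 with KRGSF at 12 months, Hsd3b1 by -0.82 and 0.25, and Sfrp4 by -1.55 and 0.61. Over all 12 measured genes of steroid synthesis 0 were called, 3 were close and 9 were undecided, with a median of -0.09 as deposited, against 0.22 for all genes between 5 and 6. It was -0.23 with 1 called lower without both arrays that stand apart and -0.18 with 3 called lower after cyclic loess. The close ones were the nuclear receptors Nr5a1 (0.18) and Nr5a2 (-0.01) and the granulosa estradiol enzyme Hsd17b1 (-0.12). Cyp17a1, the theca enzyme of androgen synthesis, had 4.61, 4.41 and 4.32 in treated ovaries, against 4.63, 4.80 and 4.87 in untreated 6-month-old ovaries. It was undecided at -0.32, and differed by 0.42 with age and -0.74 with KRGSF at 12 months. Star, Scarb1, Hsd3b1 and Cyp11a1 count in both gene groups.

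**Figure D3:**
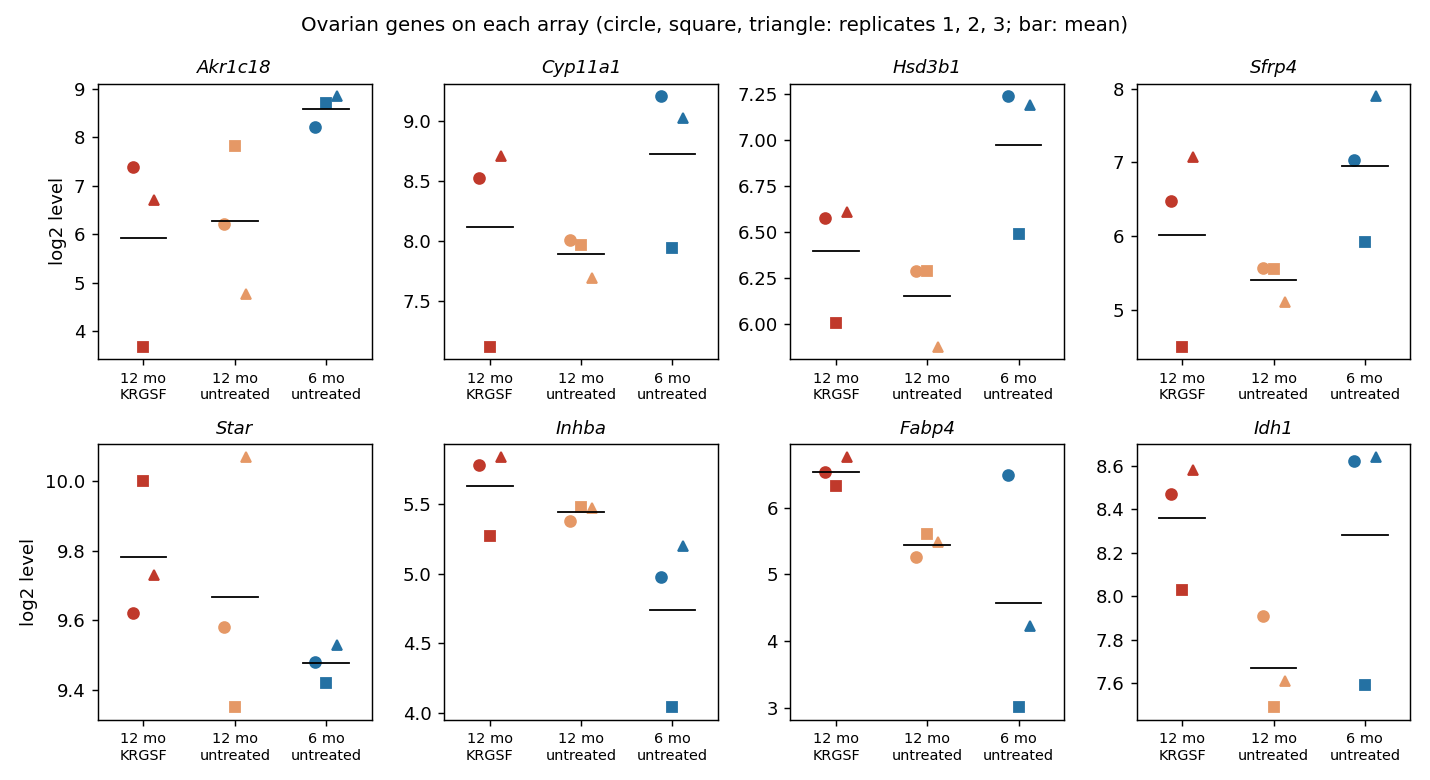
Log2 level (y axis) of Akr1c18, Cyp11a1, Hsd3b1, Sfrp4, Star, Inhba, Fabp4 and Idh1 on each array of ovaries of 12 months with KRGSF, 12 months without it and 6 months without it, with a bar at the mean of each group. Akr1c18 is at most 7.38 on every treated array and at least 8.21 on every untreated 6-month-old array, while the treated values of Idh1 lie within the range of the untreated 6-month-old ones.

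The small nucleolar RNAs, which guide modification of ribosomal RNA, were lower than other bright features. Of 73 measured, 63 had a negative difference, 3 (4.11%) were called lower and 19 were close. This share was near that of like genes, since 2.23% of all genes between 7 and 8 and 4.26% between 8 and 9 were called lower. The median level of the small nucleolar RNAs was 7.96, 7.38 and 7.89 in treated ovaries, against 8.28, 7.75 and 8.01 in untreated 6-month-old ovaries. Their median difference was -0.24, while all genes between 7 and 8 had 0.44. Those called were Snord88a (-0.77), Snora62 (-0.63) and Snord8 (-0.62), named after their values had been seen. Snord88a had 6.90, 6.19 and 6.81 in treated ovaries, against 7.56, 7.11 and 7.55 in untreated 6-month-old ovaries, without overlap. After cyclic loess the median was -0.54 with 29 called lower, and without both arrays that stand apart it was -0.18 with 0 called.

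Of single genes outside these groups, Neat1, a long noncoding RNA that builds nuclear paraspeckles, had the largest rise kept under every alternative. It had 8.66, 8.98 and 9.37 in treated ovaries, against 7.70, 7.07 and 7.82 in untreated 6-month-old ovaries, without overlap. The difference was 1.48 (CI 1.01 to 1.94) and ranged from 1.13 to 1.65 over the alternatives. It differed by 0.29 with age and 1.18 with KRGSF at 12 months. The other calls that held throughout were of 2 probe sets of Syne1, which links the nucleus to actin (1.43 and 1.15), Eid3 (1.22), Ktn1, a kinesin-binding membrane protein (1.21), the splicing helicase Ddx46 (1.21), Nabp1, which binds single-stranded DNA (1.16), and Krtap5-4, a keratin-associated protein gene (-1.05). Eid3 had 6.35, 6.84 and 6.61 in treated ovaries, against 5.72, 5.40 and 5.02 in untreated 6-month-old ovaries. Krtap5-4 had 5.14, 4.97 and 5.49 in treated ovaries, against 5.91, 6.44 and 6.38 in untreated 6-month-old ovaries. Of 98 called named genes, these and Gsta3, Slc7a11, Gclm and Psma1 made up the 12 calls that held under every alternative. The alternatives included a 2-fold threshold, so no call with a difference under 1 in either direction could hold under all of them. Hmox1, Akr1b8 and Cxcl3 were among those that lost their call at that threshold alone. Of the 15 nuclear and host-gene long noncoding RNAs listed with Neat1, 3 (20%) were called higher, 1 (6.67%) was called lower and 4 were close. All genes between 5 and 6 were called higher in 9.63% and lower in 1.04%. Malat1 (0.64) and Lncpint (0.73) were the other two called higher, Snhg11 (-0.59) was called lower, and only Neat1 was called higher at the other settings.

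Cell division lay close to the younger ovary. Of 28 genes measured, 22 (78.6%) were close and 0 were called, against 35.8% close over all genes. All genes between 4 and 5, the brightness of the group, were close in 44.6%. Only 14 of the 28 genes were close without both arrays that stand apart, and after cyclic loess 20. The median difference was 0.02, -0.08 without both arrays that stand apart and 0.13 after cyclic loess, so its sign was not fixed. Cdc20, which activates the anaphase ligase, had 5.21, 5.27 and 5.12 in treated ovaries, against 5.22, 5.39 and 5.28 in untreated 6-month-old ovaries, a difference of -0.09 (CI -0.39 to 0.20). Mki67, the usual marker of cycling cells, had 5.09, 5.54 and 5.23 in treated ovaries, against 5.02, 5.02 and 5.36 in untreated 6-month-old ovaries, a difference of 0.16 (CI -0.24 to 0.55). The centromere histone Cenpa (0.00, CI -0.34 to 0.34) was close but dim. Only 8 of the 28 genes were above the dim level, and 20 were at or below it. Of 23 DNA repair genes, 13 (56.5%) were close and 4 (17.4%) were called higher, against 44.6% and 1.92% of all genes between 4 and 5. There were 10 close and 0 called without both arrays that stand apart, and after cyclic loess 12 were close and 2 called. Those called as deposited were the mismatch repair gene Msh6 (0.74), the break repair genes Mre11a (0.67) and Xrcc5 (0.67) and the checkpoint kinase Atr (0.59). Msh6 had 4.70, 5.24 and 4.82 in treated ovaries, against 4.55, 3.76 and 4.22 in untreated 6-month-old ovaries, and was at 0.38 without both arrays that stand apart.

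Cholesterol synthesis and uptake, which is brighter, lay close as well. Of 17 genes measured, 12 (70.6%) were close and 0 were called, against 39.4% close for all genes between 5 and 6. Nsdhl, a sterol dehydrogenase, had 5.63, 5.72 and 5.92 in treated ovaries, against 5.73, 5.74 and 5.76 in untreated 6-month-old ovaries, a difference of 0.01 (CI -0.29 to 0.31). Sc5d, a sterol desaturase, had 6.89, 6.91 and 6.93 in treated ovaries, against 6.82, 6.68 and 6.86 in untreated 6-month-old ovaries, a difference of 0.12 (CI -0.17 to 0.41). Fdft1, squalene synthase, was close at -0.05 (CI -0.38 to 0.28). The median was 0.01 as deposited, -0.07 without both arrays that stand apart, with 11 close, and -0.19 after cyclic loess, with 9 close and 1 called lower. Nsdhl differed by -0.36 with age and 0.37 with KRGSF at 12 months.

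Ribosomal proteins and the matrix held members on both sides. Of 57 cytosolic ribosomal protein genes, 22 (38.6%) were close, against 12.6% of all genes between 7 and 8, among them Rpl7a (0.08, CI -0.21 to 0.38) and Rpl5 (0.09, CI -0.22 to 0.40). Rpl4 (0.71), Rps13 (0.97), Rpl38 (0.65) and Rpl7 (0.61) were called higher and Rps18 (-0.63) lower. The share called higher was 7.02%, against 21.1% of all genes between 7 and 8. Without both arrays that stand apart 25 were close, 0 called higher and 1 lower, and after cyclic loess 32 were close, 2 called higher and 1 lower. Genes of this family have many pseudogenes that may share probes. Of 33 extracellular matrix genes, 10 were close, 5 (15.2%) were called higher and 1 lower, against 9.63% called higher of all genes between 5 and 6. The count called higher was 3 without both arrays that stand apart and 0 after cyclic loess. Those called higher as deposited were the laminins Lama4 (0.67), Lamb1 (0.64) and Lamc1 (0.61), the laminin binder Nid1 (0.67) and the proteoglycan Dcn (0.75). Lama4 had 6.26, 5.99 and 6.17 in treated ovaries, against 5.57, 5.27 and 5.56 in untreated 6-month-old ovaries, without overlap. The fibrillar collagen Col5a1 (0.07, CI -0.24 to 0.38) and the collagen Col6a3 (0.08) were close, and Col14a1 (-0.74) was called lower but dim.

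Inflammation and interferon genes were mostly close or undecided. Of 17 inflammasome genes 6 (35.3%) were close, against 44.6% of all genes between 4 and 5, and 0 were called at either of the other settings. As deposited Nek7, a kinase that activates NLRP3, was called higher (0.60), and Aim2, a DNA sensor, was called lower (-0.60) at dim levels. Each was 1 of 17 (5.88%), against 1.92% called higher and 3.23% called lower of all genes between 4 and 5. Nlrp3, the sensor itself, had 2.84, 2.92 and 2.57 in treated ovaries, against 3.14, 3.37 and 3.15 in untreated 6-month-old ovaries. No array overlapped, but all 6 were far below the dim level, and the gene was undecided at -0.44 (CI -0.81 to -0.08). The adaptor Pycard (-0.27), Casp1 (0.16), Il1b (-0.11) and Il18 (-0.21) were undecided, and of these only Pycard was above the dim level. Ptgs2, cyclooxygenase 2, was bright and undecided at 0.42 (CI -0.06 to 0.89), and Nos2, the inducible nitric oxide synthase, was close at 0.10. Of 26 interferon response genes, 12 (46.2%) were close, against 39.4% of all genes between 5 and 6, and only Ifih1, an RNA sensor, was called (0.66). At the other settings 10 and 8 were close. Of 30 chemokine, cytokine and NF-kB genes, Cxcl3 (0.97), Il6 (0.87) and Ccl2 (0.77) were called higher. This was 10%, near the 9.63% of all genes between 5 and 6, and 1 was called without both arrays that stand apart and 2 after cyclic loess. Il6 and Ccl2 overlapped between the groups, and Il6 was at 0.42 and not called without both arrays. Cxcl3 had 4.81, 4.68 and 4.83 in treated ovaries, against 3.62, 3.83 and 3.96 in untreated 6-month-old ovaries, without overlap, and differed by -0.11 with age and 1.07 with KRGSF at 12 months. Of these values only that of the treated replicate 3 exceeded the dim level of 4.82. Of 15 senescence markers, 4 were called higher (26.7%), against 9.63% of all genes between 5 and 6. The median level of the markers, 5.87, lay near the upper edge of that span, and 22.2% of all genes between 6 and 7 were called higher. The count was 0 without both arrays and 1 after cyclic loess. Il6 and Ccl2 are also among these 4 markers. The others were Igfbp5 (0.67) and the urokinase receptor Plaur (0.61), while Cdkn2a, a cell cycle inhibitor of senescent cells, was close at -0.04.

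**Figure D4:**
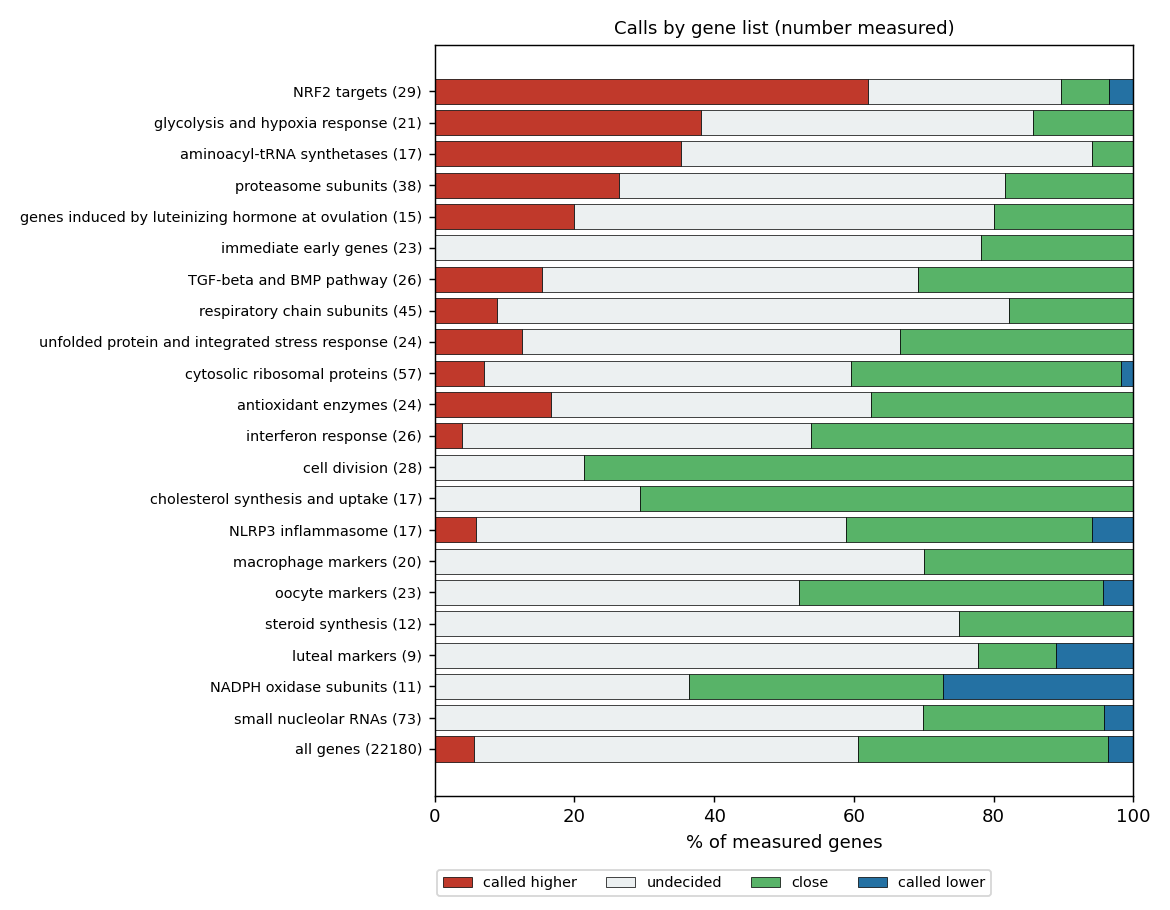
Share of genes (x axis, percent) in each of 21 gene groups and over all genes that were called higher, undecided, close or called lower in treated ovaries of 12 months, set against untreated ovaries of 6 months. The NRF2 targets have the widest share called higher, at 62.1%, and cell division (78.6%) and cholesterol synthesis and uptake (70.6%) the widest shares close.

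Markers of the ovary's cell types were compared in the same way, which does not give the share of each cell type. Many were dim. Only 3 of 23 oocyte, 6 of 20 macrophage, 2 of 14 neutrophil and 2 of 17 lymphocyte markers had a mean above the dim level. Of 16 granulosa markers, Inhba and Amhr2 were called higher (12.5%, against 9.63% of all genes between 5 and 6) and 5 were close. At each of the other settings 1 was called. Inhba, the subunit that makes activin, had 5.78, 5.27 and 5.84 in treated ovaries, against 4.98, 4.04 and 5.20 in untreated 6-month-old ovaries, without overlap. It rose by 0.89 (CI 0.35 to 1.43), and by 0.72 without both arrays that stand apart. Amhr2, the receptor of anti-Mullerian hormone, rose by 0.65. The hormone Amh (-0.05, CI -0.39 to 0.30) and the granulosa transcription factor Foxl2 (0.05, CI -0.34 to 0.44) were close, and neither gene exceeded the dim level on any of these arrays. Of 14 theca and stroma markers, Pdgfra (0.69) and Dcn were called higher (14.3%, against 9.63% of all genes between 5 and 6), and 0 were called at either of the other settings. Dcn overlapped between groups and was at 0.14 without both arrays that stand apart.

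Of 23 oocyte markers 10 (43.5%) were close and 1 (4.35%) was called lower, with a median of -0.13 at a median level of 4.15. All genes between 4 and 5 were near these values, with 44.6% close, 3.23% called lower and a median of -0.11. At each of the other settings 1 was called lower, with medians of -0.12 and 0.01. Oog1, an oocyte gene with close relatives in the mouse genome, had 4.21, 3.53 and 3.70 in treated ovaries, against 4.24, 5.63 and 4.95 in untreated 6-month-old ovaries, and fell by 1.13. Its mean over the 12 arrays, 4.285, was below the dim level. Ooep, of the oocyte's subcortical complex, was close at -0.01 (CI -0.36 to 0.33), and above the dim level. Of 20 macrophage markers 0 were called and 6 were close, with a median of -0.07, and Cd68 had 6.60, 6.85 and 6.94 in treated ovaries, against 6.71, 5.88 and 6.31 in untreated 6-month-old ovaries. Of 14 neutrophil and 17 lymphocyte markers 0 were called. The counts of these 3 lists were 0 at the other settings too. Of 15 endothelial markers, Flt1, a VEGF receptor, was called higher (0.83). This was 6.67%, against 9.63% of all genes between 5 and 6. Of 15 surface and oviduct epithelium markers, the keratins Krt18 (0.83) and Krt8 (0.63) were called higher. This was 13.3%, against 22.2% of all genes between 6 and 7. Flt1 was also called at both other settings, and no epithelium marker was called higher at either. Krt18 differed by 0.71 with age and 0.11 with KRGSF at 12 months.

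Fat tissue that stays on an isolated ovary can be read from adipocyte markers. Fabp4, a fatty acid carrier of adipocytes and of capillary endothelium, had 6.53, 6.33 and 6.76 in treated ovaries, against 6.49, 3.01 and 4.23 in untreated 6-month-old ovaries. The untreated replicate 1 lay within the treated range and the others far below, and the difference was 1.97 (CI 0.77 to 3.17). It ranged from 1.18 to 2.92 over the alternatives, and the call was lost with the t-test of the study's methods. Of the 15 adipocyte markers no other was called, 7 were close and the median was -0.07. Adipoq, the hormone that only adipocytes make, had 2.61, 2.71 and 2.96 in treated ovaries, against 3.01, 3.04 and 3.01 in untreated 6-month-old ovaries, which is below the dim level on every array.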

How the data were processed

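The 12 ovary arrays (Affymetrix Mouse Gene ST, 4 groups of 3) were deposited as log2 expression values that the authors made with RMA in Affymetrix Expression Console 1.4, which corrects background, quantile-normalizes and summarises probes. These steps bring arrays to like distributions, yet the deposited values still differed in spread between arrays. The genome build behind the probe annotation is not given in the sources used here, and no detection calls were used. Intensities of probes, and so each array's signal over background, were not analysed here. The number of arrays, 3 per group, limits the precision.

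All 33793 probe sets were tested with limma 3.58.1 (R 4.3.3), with 1 mean per group over 12 arrays, 8 residual and 7.02 prior degrees of freedom, and Benjamini-Hochberg adjustment over all probe sets. The study's methods name a t-test or ANOVA, and limma is the same linear model with moderated spread. Of the probe sets, 23521 had 1 gene symbol, 1820 several and 8452 none. The brightest probe set stood for each of 22180 genes, of which 21994 matched the current RefSeq table. The dim level of 4.82 is the 95th percentile of the mean levels of olfactory receptor genes. The median difference of all probe sets was -0.11 as deposited and 0.00 after cyclic loess or 0.01 after quantile normalization. The steps were tested on simulated data.

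The comparison, its 58 gene lists and their members were chosen with earlier results of these data known. Lists carry no test, and are given by counts and medians beside all genes. Named genes were the 10 highest and 10 lowest calls without overlap among brighter probe sets with an established symbol, genes the paper names, and, per list, the 4 members with the largest moderated t and the 3 closest. Adipoq, Atf4, Ccl2, Cox7b, Cyp11a1, Dnajb9, Idh3b, Inha, Kars, Lamc1, Mdh1, Mki67, Ndufb9, Pdhb, Pdia3, Psmb9, Rpl38, Rpl7, Rps18, Sars, Scarb1, Skil, Snhg11, Zp2 and Zp3 were added after their values had been seen. TGACNNNGC was searched on both strands of RefSeq promoters (GRCm38.p6). It was found in 4071 of 32851 (12.4%). Plots were drawn with matplotlib 3.10.9.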

Additional observations from a re-analysis of the deposited data

How the results depend on the processing

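As deposited, 1557 probe sets were called higher, 1925 lower and 11453 close. Fewer were called higher, or lower, with the methods' t-test (821 and 951), a 2-fold threshold (58 and 159) and without both arrays that stand apart (361 and 665). Quantile normalization gave 894 higher and 1367 lower, cyclic loess 825 and 1524 and arrayWeights 837 and 1475, so the share called lower moved with the normalization. Testing only probe sets above the median level gave 941 lower and 6190 close, testing 1 probe set per gene gave 823 lower, and a 2-fold margin gave 29057 close. Leaving out 1 array at a time gave 723 higher (without 6-month-old untreated replicate 2) to 2492 (without 6-month-old untreated replicate 1), with 786 without 12-month-old KRGSF-treated replicate 2. It gave 1077 lower (without 12-month-old KRGSF-treated replicate 2) to 3094 (without 6-month-old untreated replicate 1), and 7443 to 11635 close. Past adjustment, where the fit as deposited had 0 either way, there were 1982 higher and 778 lower above the median level, 464 and 186 with 1 probe set per gene, 406 and 175 with a trended, robust prior and 323 and 288 with arrayWeights, and 0 to 1050 higher and 0 to 654 lower without 1 array, the highest without 6-month-old untreated replicate 1. The cause of these moves was not tested.

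Same-numbered arrays did not deviate together (correlations of -0.17, -0.28 and -0.05), so the numbers were not taken as pairs, and the replicate block gave 1556 higher, 1937 lower and 10751 close. Of 361 named genes no called value reversed under any alternative, and 12 of 98 calls held under all. That count is limited by the 2-fold threshold among the alternatives, which smaller differences cannot pass. Of 58 list medians 14 changed sign under some alternative. With 3 arrays per group, dim genes limit what can be called close, since probes near background cannot follow a change.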
